A study of Mus musculus with 65 samples.

Results

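Cytoplasmic ribosomal protein genes encode the protein part of the ribosome that translates nuclear messages. They were taken as the genes whose symbols are Rpl or Rps followed by a number (with an a, l, x or y form), together with Rplp0, Rplp1, Rplp2 and Rpsa. Of 11875 genes named once in the table, 73 met this rule, 41 of the large and 32 of the small subunit. Among the 73, 4 are paralogs by name (Rpl7l1, Rpl22l1, Rps27l and Rps4l), and Rps4l carries a processed pseudogene annotation in GENCODE M21. The symbols Rpl11, Rpl17, Rpl18, Rpl23a, Rpl26, Rpl28, Rpl31, Rpl36al and Rps27a were not analysed here.

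The cells were 65 single neurons of the mouse nucleus of the solitary tract, a hindbrain nucleus that receives visceral signals. All came from male mice of mixed strain that carried Hsd11b2-Cre and the Cre-dependent Ai9 (lox)tdTomato reporter, and cells positive for tdTomato were picked by hand and made into Smart-seq2 libraries. Hsd11b2 encodes the enzyme that lets a cell sense aldosterone, and a Cre reporter also keeps any cell that expressed Hsd11b2 earlier in life. Standard chow was the diet for 33 cells and a low sodium diet for 32. The age of the mice was not given in the sources used here, and the protocol text names Arc-ME as the digested tissue while the tissue label names the nucleus of the solitary tract. No label ties a cell to an animal, so each diet counts as 1 sample, no test between diets was made, and every SD below is a spread over cells. Values are log2(CPM + 1), with CPM the read count of a gene scaled to a library of 1000000 reads, unless another scale is named.

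A ribosome joins 1 copy of nearly every such protein, so the messages are made in balanced amounts, and the P stalk proteins are the known exception with more than a single copy. The messages are short, abundant and mostly begin with a terminal oligopyrimidine (TOP) tract, a C followed by pyrimidines at the first base of the message. Through this tract the mTOR pathway controls how strongly they are translated. Mouse and human genomes also hold many processed pseudogenes of these genes, and reads that match such a copy cannot always be placed.

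The start sites below are shown because the TOP tract is the sequence feature that this gene family is known for, in 5 members with a tract and in a pair without. Each window runs 5′ to 3′ from 5 bases before the RefSeq transcription start to 24 bases after its first base, on GRCm38.p6. Capitals mark a tract of C followed by at least 4 pyrimidines that begins within 5 bases of the start. The windows lie at chr7:109519190-109519219 (plus strand) for Rpl27a, chr14:18270962-18270991 (minus) for Rpl15, chr2:39005107-39005136 (minus) for Rpl35, chr4:86857343-86857372 (minus) for Rps6, chr2:180257374-180257403 (plus) for Rps21, chr9:64173382-64173411 (plus) for Rpl4 and chr17:33824538-33824567 (minus) for Rps28.
Rpl27a: gCTCCTCCCTTTTCCCTTTCTgccaccgcc
Rpl15: gCCTTCTTCCTTTCCTCTggcggcagccat
Rpl35: CTTTCCTCTTTCTCTCgaaccaggctgctt
Rps6: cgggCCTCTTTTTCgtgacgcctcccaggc
Rps21: ccgCCCTCCTgcccaatagtgctgcggagg
Rpl4: tgtgggagcagccgggtagagaggagcgtg
Rps28: gcggtctcgcgagagcgaaagtgaggcgtg

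The RefSeq promoter table held 55 of the 73 members, and at least 1 listed start had such a tract on the sense strand in 26 of them (47.3%). The same was true of 5718 of 27025 genes in the whole table (21.2%) and of 2104 of the 8827 other genes measured here that had an entry (23.8%). A match describes these letters only, and a missing match describes only the listed start. The 18 members without an entry included Rpl3, Rpl7, Rpl8, Rpl21, Rpl29, Rpl30, Rpl32, Rpl36, Rplp1, Rps4l, Rps14, Rps20 and Rps29.

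All 65 cells had at least 3 neuronal and at least 3 HSD2 neuron markers above 10 CPM, and Hsd11b2 itself was detected in every cell. Recovered reads per cell ranged from 50072 to 3239580 on chow and from 50537 to 5317020 on low sodium. A complete set of CPM sums to 1000000, and the listed CPM summed to between 1393471 and 2170050 in 9 low-sodium cells (neurons 42, 45 to 51 and 57). The highest sum among the other 23 low-sodium cells was 1147330 and the highest on chow was 1058070. These 9 columns were therefore described apart, and a rescaled level, in which the listed CPM of each cell were set to sum to 1000000, is given beside the deposited one. Rescaling moved the median difference of all genes by -0.14 between the diets, by 0.006 without the 9 cells and by -0.43 between the 9 and the other low-sodium cells.

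Ribosomal protein messages were a small part of the chow cells and of most low-sodium cells, and a far smaller part of the 9 cells with high sums. On chow the 73 members together held from 0.317% to 1.12% of a cell's listed CPM, with a median of 0.645% (mean 0.677% ± 0.166 SD, n = 33 cells). The other 23 low-sodium cells held from 0.363% to 1.33%, with a median of 0.710% (mean 0.704% ± 0.280 SD). The 2 ranges overlapped over most of their length, and the difference in means, 0.0275 percentage points, was smaller than either SD.

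In the 9 high-sum cells the members held from 0.125% to 0.293%, with a median of 0.142% (mean 0.167% ± 0.055 SD). Every one of the 9 lay below all 56 other cells. The nearest pair was neuron 50 on low sodium at 0.293% (exact 95% binomial interval 0.280% to 0.306%) and neuron 12 on chow at 0.317%. The share has the listed sum as its denominator, and that sum also chose the 9 cells. The summed CPM of the members, which did not enter the choice apart from its own small part of the sum, ran from 1808 to 4086 in the 9 cells (median 2511), from 3194 to 12744 in the other low-sodium cells (median 6118) and from 2860 to 11846 on chow (median 5649). On that scale the ranges of the 9 and the rest overlapped.

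**Figure D1:**
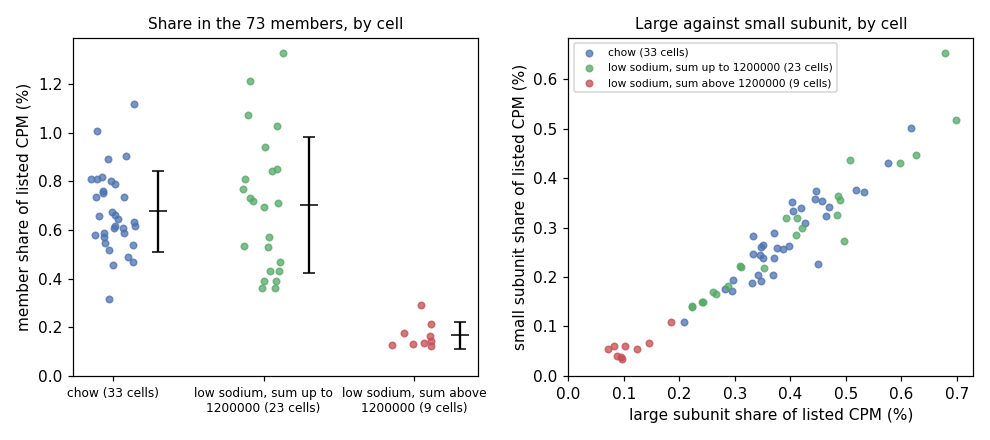
Left, share of each cell's listed CPM in the 73 members, 1 point per cell, with the mean and SD over cells as a bar beside each set; right, large subunit share against small subunit share in the same cells. The 9 low-sodium cells with sums above 1200000 sit between 0.125% and 0.293%, below all 56 others, and the subunits track each other along 1 band.

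Depth differed among the cells and moved with the share. Across the 23 other low-sodium cells the share was lower where more reads were recovered (Pearson r = -0.89, Spearman rho = -0.86 against log10 reads, and r = -0.84 without the 2 cells farthest from the median depth). On chow the same relation had r = -0.41 and rho = -0.42 over 33 cells (r = -0.48 without 2 cells). Within the 9 high-sum cells the sign was the opposite (r = 0.50, rho = 0.38, and r = 0.86 without 2 cells). The points share their library, and a share rests on the same reads that set the depth, so these are descriptions. The 9 high-sum cells had from 218805 to 697726 reads, inside the range of the others, and their shares lay below those of other cells of like depth. When every cell was thinned to 50000 reads, the mean share was 0.671% on chow, 0.709% in the other low-sodium cells and 0.176% in the 9 cells. Random thinning leaves a share unchanged on average, so these values cannot show whether the shares would agree or differ at equal depth.

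**Figure D2:**
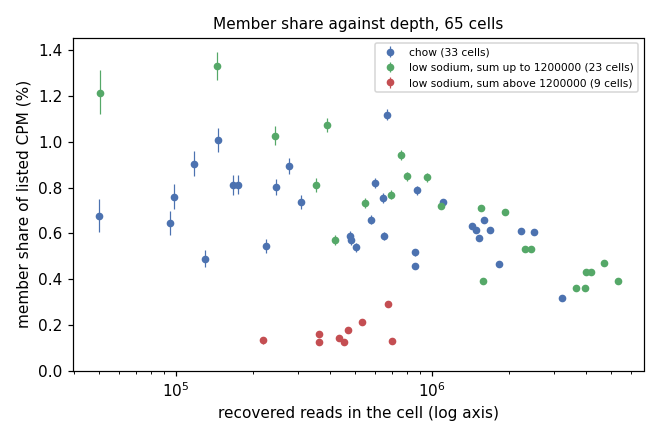
Member share of listed CPM against recovered reads (log axis), 1 point per cell, with exact 95% binomial intervals that cover counting error only. Shares in the other low-sodium cells run from 1.33% at low depth to under 0.5% at high depth, while the 9 high-sum cells lie between 218805 and 697726 reads with shares of at most 0.293%.

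Detection followed the same order. Of the 73 members, a chow cell had reads for 60 to 73 (median 72), another low-sodium cell for 64 to 73 (median 72) and a high-sum cell for 53 to 69 (median 67). After thinning to 50000 reads the medians were 62, 63 and 34 members. In all, 36 members were detected in every one of the 65 cells, and 12 were absent from 5 or more. The latter were Rps4l (38 cells with reads), Rpl7l1 and Rps12 (52 each), Rpl27a and Rpl29 (56 each), Rps27 (57), Rps23 (58), Rpl7a, Rpl15, Rpl35a and Rps27l (59 each), and Rps6 (60).

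Between the diets over all 65 cells, the median member was lower on low sodium by -0.45, and the median of all 11875 genes was -0.12. A mean difference of -1 or lower was found for 3 of 73 members, Rps25 (-1.12), Rpl35a (-1.10) and Rps4l (-1.07), against 6.55% of all genes, and no member was higher by 1 or more, against 3.61% of all genes. With rescaled levels 10 of 73 were lower by 1 or more, against 9.58% of all genes. Below 0 were 69 of 73 members, against 58.5% of all genes.

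This difference between diets rested on the 9 high-sum cells. Without them the median member differed by 0.0038 between low sodium and chow, against -0.10 for all genes. Of the 73 members 35 were below 0, against 57.5% of all genes, and 1 of 73, Rps4l, was lower by 1 or more, against 6.27%. Both comparisons use the same 33 chow cells and share 23 low-sodium cells. At least 3 markers of a non-neuronal type were carried by 39 of 65 cells, 7 of the 9 high-sum cells among them. Without these 39 cells the all-cell median was -0.14 in place of -0.45. It was -0.22 by the ratio of mean CPM, -0.66 rescaled and -0.86 after thinning to 50000 reads, below 0 in each of these.

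The largest differences without the 9 cells were those of genes with scattered detection. Rps4l had a median of 5.13 on chow (0 to 8.58, detected in 22 of 33 cells) and of 0 in the other low-sodium cells (0 to 8.05, detected in 10 of 23). Its difference of -1.28 was well inside its SD of 3.05 and 3.34 over cells. Rpl15, a large subunit protein, ran from 0 to 7.30 on chow (median 5.88) and from 0 to 7.92 on low sodium (median 4.83), a difference of -0.75. Rps12 of the small subunit showed the opposite sign at 0.71, with a median of 1.94 on chow (0 to 5.56) and 2.58 on low sodium (0 to 5.65). Both diets overlapped fully for all 3 genes.

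Within the low-sodium cells, members were lower in the 9 high-sum cells almost without exception. The median member difference against the other 23 was -1.75 as deposited and -2.55 rescaled, while the median of all genes was -0.15 and -0.58. Rescaling divides each cell by the sum that chose the 9 cells, so it lowers every gene in them by construction, and rescaled values are to be read against those of all genes. With median-of-ratios size factors from widely detected genes that are not members, which leave that sum out, the median member difference was -1.49. As deposited 60 of 73 members were lower by 1 or more, against 20.8% of all genes, and rescaled 70 of 73 were, against 35.5%. Rescaled, 57 of 73 were lower by 2 or more, against 11% of all genes. Among the 9 cells 7 carried at least 3 markers of 1 non-neuronal type, as did 13 of the other 23. In 6 of the 9 that type was the astrocyte, although Slc1a3 and Gja1, 2 of its defining genes, were at 0 in all 9 and Aqp4 was detected in 2. The summed CPM of the 9 astrocyte markers ran from 433 to 3339 in the 9 cells and from 252 to 1957 in the other 23. These deposited CPM are not adjusted for the higher listed sums of the 9 cells. In the same 2 sets the mean summed CPM was 1300 and 643 for astrocyte markers. It was 11625 and 6071 for neuronal markers, and 3026 and 1557 for HSD2 neuron markers. The summed CPM of 7 oligodendrocyte markers ran from 17.1 to 15520 in the 9 cells (median 402) and from 44.7 to 1396 in the other 23 (median 230). The value of 15520 was that of 1 cell, neuron 45. Without the cells with markers of any such type the median member difference was -1.70 as deposited, and the mean share was 0.156% in 2 high-sum cells and 0.711% in 10 others.

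**Figure D3:**
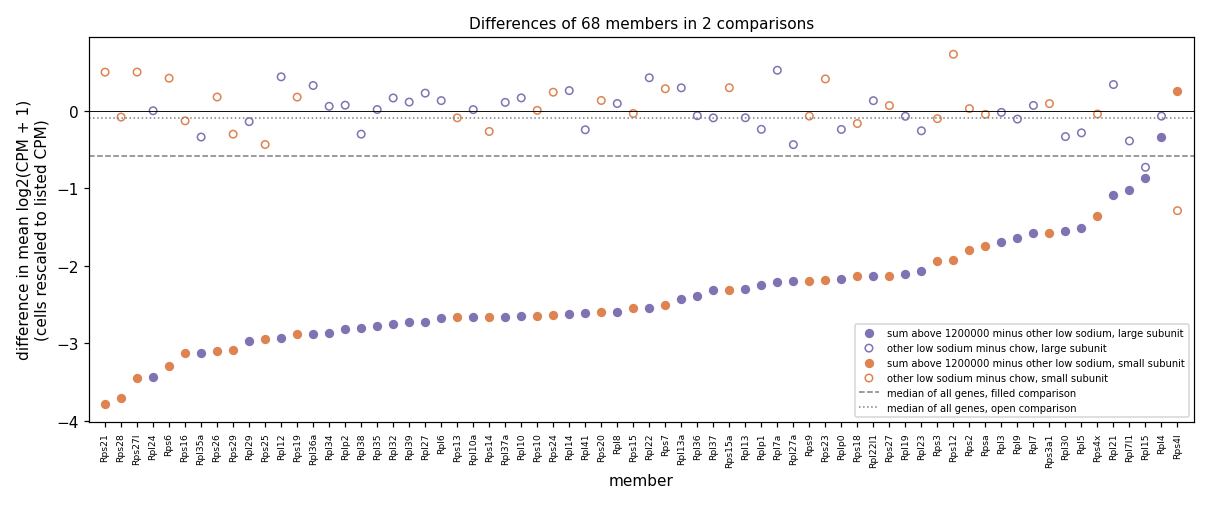
Difference in mean log2(CPM + 1), on rescaled levels, for 68 of the 73 members, ordered by the comparison of high-sum with other low-sodium cells (filled) and with the comparison of other low sodium with chow over it (open), coloured by subunit. Filled points lie below the median of all genes, -0.58, for all members shown but Rpl4 and Rps4l, while open points scatter around 0.

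Rps28 and Rps21 of the small subunit were among the members with the largest deposited differences. Rps28, which lies near the path of the message through the small subunit, had a median of 5.80 in the other low-sodium cells (highest 8.19) and of 3.00 in the high-sum cells (0 to 6.66), a difference of -3.16 with overlap. Rps21 ran from 4.90 to 8.20 (median 6.40) and from 2.20 to 5.06 (median 3.39), a difference of -3.03, and only its extremes overlapped. Further large differences were those of Rps27l (-2.89), Rps6 (-2.80), Rpl35a (-2.71), Rpl29 (-2.70) and Rpl24 (-2.69).

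As deposited, every high-sum cell was below every other low-sodium cell for 3 of 73 members, against 0.0842% of all genes. On rescaled levels, which carry the limit given above, this held for 19 of 73, against 1.09%. Among them were Rpl6, Rpl8, Rpl14, Rpl27, Rpl35, Rpl36a, Rpl37, Rpl38, Rplp2, Rps6, Rps7, Rps9, Rps13, Rps16, Rps21, Rps26 and Rps29. The 19 comprised 9 large and 10 small subunit genes.

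Rps4l (0.73, rescaled 0.26) had the highest value, with cells at 0 in both sets, and Rpl4 (0.51) came next. Rpl4, a large subunit protein with a long loop in the exit tunnel, ran from 7.47 to 10.05 in the other low-sodium cells (median 8.63) and from 8.34 to 9.72 in the high-sum cells (median 9.38). Its rescaled difference was -0.34, so its sign depends on the scaling, and the sets overlapped on both. As deposited, Rpl4 was higher in the 9 cells while nearly all other members were lower. Rpl4 alone made up 22.0% ± 5.79 (SD) of the members' CPM in the 9 cells, against 7.11% ± 2.43 in the other low-sodium cells and 7.37% ± 2.45 on chow. Rpl15 followed at -0.14 (rescaled -0.87) and had cells at 0 in both sets.

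Members of the P stalk, the flexible arm that recruits elongation factors, were all lower in the high-sum cells. Rplp0, the base of the stalk, ran from 5.96 to 8.47 in the other low-sodium cells (median 6.83) and from 4.08 to 6.70 in the 9 (median 5.78). Rplp1, which pairs with Rplp2 on the stalk, ran from 5.63 to 8.99 (median 7.10) and from 4.72 to 7.02 (median 5.58). The rescaled differences were -2.17 for Rplp0, -2.24 for Rplp1, -2.81 for Rplp2 and -2.93 for Rpl12, which binds the base of the stalk. Without the 9 cells low sodium and chow differed by -0.25 for Rplp0 and Rplp1, 0.06 for Rplp2 and 0.41 for Rpl12, each less than the SD over cells.

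Proteins of the message channel on the small subunit were measured for 7 of 8 listed genes, with a median rescaled difference of -2.66. Rps3, which sits at the entry of the channel, ran from 6.95 to 9.36 in the other low-sodium cells (median 8.29) and from 5.95 to 8.27 in the high-sum cells (median 7.11), a deposited difference of -1.09. Rps2, its neighbour at the entry, had -1.01 and Rps23, a decoding centre protein, -1.72. Rps6, the substrate of S6 kinase, had a median of 4.70 in the other cells (3.52 to 5.93) and of 2.20 in the 9 (0 to 4.50), and was at 0 in 3 of the 9. Of the exit tunnel rim genes 3 of 7 listed were measured, with rescaled differences from -2.11 for Rpl19 and -2.54 for Rpl22 to -2.78 for Rpl35. Rpl5, which carries the 5S RNA into the large subunit, differed less, by -0.70 as deposited and -1.51 rescaled.

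The paralogs by name did not share 1 pattern. Rpl22l1 was detected in all 65 cells and differed by -2.13 rescaled, and Rps27l by -3.45. Rpl7l1 ran from 0 to 7.24 in the high-sum cells and from 0 to 6.92 in the others, a rescaled difference of -1.02. For Rps4l the rescaled difference was 0.26.

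Over all cells, large and small subunit genes moved together. The summed large subunit share of a cell correlated with the small subunit share at r = 0.96 (rho = 0.95, 65 cells) and at r = 0.94 without the 9 high-sum cells (rho = 0.93). Within the 9 alone r was 0.81 (rho = 0.52), and 0.05 without the 2 cells farthest from the median large subunit share. The points share their library and their denominator. Large subunit genes made up 59.0% ± 3.50 (SD) of the members' CPM on chow, 58.9% ± 3.05 in the other low-sodium cells and 65.8% ± 5.79 in the 9. Median differences of large minus small subunit genes were -0.08 over all cells, -0.05 without the 9 and 0.06 between the 9 and the other low-sodium cells. The gap between the subunits' mean levels in a cell is another measure and is not to be set against these. It averaged 0.20 ± 0.23 (SD) on chow, 0.13 ± 0.27 in the other low-sodium cells and 0.37 ± 0.42 in the 9.

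Per kilobase of transcript, the mean large subunit level was above the small subunit level by 0.09 on the log2 scale over 65 cells (SD 0.26). The gap was 0.05 on chow, 0.04 in the other low-sodium cells and 0.37 ± 0.43 in the 9, where 8 of 9 cells were above 0. Without Rpl4 these values were -0.01, -0.02 and 0.07, so the larger gap in the 9 cells rested on that gene.

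Across cells the members followed each other more closely than they followed other genes taken at any length. On rescaled levels the median Spearman rho between 2 members was 0.50 over 65 cells, 0.30 without the 9 and 0.22 on chow alone. Between a member and 1 of 3788 other genes with a mean level of at least 5 it was 0.08, -0.04 and -0.01. The points share libraries and depth, and the other genes were not matched to the members for transcript length. These values therefore cannot show whether such agreement is particular to the members. The other genes most like the mean over members were Ndufa7 (rho 0.86), Ndufa3 (0.84), Tomm7 (0.84), Fau (0.84), Atp5e (0.83), Cox7c (0.83), Myeov2 (0.82), Hint1 (0.82), Cox17 (0.81) and Atp5j2 (0.81), over 65 cells. Ndufa7 and Ndufa3 encode small subunits of respiratory complex I, Atp5e and Atp5j2 small subunits of ATP synthase, and Fau the small subunit protein S30 fused to a ubiquitin-like part.

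Most of the named neighbours are short transcripts, and length moved with the difference in the high-sum cells. Rescaled, the median difference of other genes with a mean level of at least 5 went from -2.22 under 500 bases (41 genes) and -2.30 from 500 to under 750 bases (141 genes) to -0.10 at 5000 bases and over (662 genes). Under 1000 bases the median was -2.65 for 55 members and -2.16 for 342 other genes, and their lower and upper quartiles were -2.84 and -2.19 for members and -2.60 and -1.63 for the others. Among the 73 members, length correlated with the rescaled difference at r = 0.38 (rho = 0.42, r = 0.40 without the 2 farthest), across genes that are not independent.

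**Figure D4:**
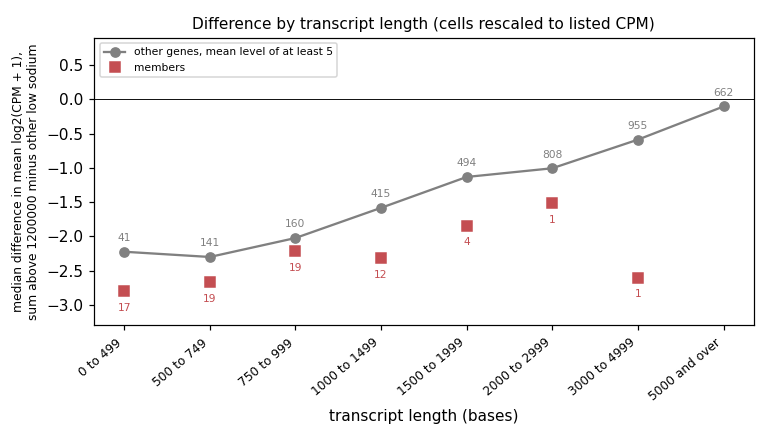
Median difference in mean log2(CPM + 1), rescaled, of high-sum against other low-sodium cells by transcript length, for other genes with a mean level of at least 5 (circles) and for members (squares), with the number of genes beside each point. Other genes run from -2.22 at the short end to -0.10 at the long end, and member medians, which rest on 1 to 19 genes, lie below them in each bin that holds members.

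Short non-member transcripts also held their lowest mean share in the 9 high-sum cells. The 856 other genes under 1000 bases held 8.49% ± 1.62 (SD) of listed CPM on chow, 7.99% ± 2.29 in the other low-sodium cells and 3.50% ± 0.519 in the 9. The 2068 genes of 5000 bases or more held 14.4%, 15.7% and 25.5%. Over all 65 cells the short non-member share correlated with the member share at r = 0.92 (rho = 0.93), and at r = 0.86 (rho = 0.89) without the 9. Divided by the short non-member share, the member share was 0.0795 ± 0.0107 on chow, 0.0859 ± 0.0134 in the other low-sodium cells and 0.0480 ± 0.0135 in the 9, where it ran from 0.0307 to 0.0722 against 0.0641 to 0.121 in the other 23. The part of length in the members' difference was not tested beyond these values.

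Levels between genes were compared per kilobase of the shortest principal transcript. Rpl4 was highest at 8.12 log2 CPM per kb (SD 0.58 over cells on the log2(CPM + 1) scale), and high levels were also found for Rplp1 (7.98), Rps14 (7.88), Rpl8 (7.77), Rps9 (7.73), Rplp2 (7.68), Rps15 (7.60) and Rpl41 (7.48). Neighbours in this order differed by far less than the SD over cells. Per kilobase of coding sequence the order was another, with Rpl41 (10.01), Rplp1 (8.52) and Rps3 (8.49) above Rpl4 (8.41). At the other end were Rps12 (2.82), Rps23 (3.13), Rps4l (3.51), Rpl7a (3.57), Rpl29 (3.85) and Rpl27a (3.87).

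The genes with low levels per length were mostly those with many near-identical copies in the annotation. A copy was counted where another annotated transcript matched the coding sequence with at least 95% identity over at least 80% of it (for Rps4l, which has no annotated coding sequence, its whole transcript was matched), and 68 of 73 members had at least 1. Rpl21 had 57 copies, Rpl7a 31, Rpl29 27, Rps2 26 and Rps12 22, while Rpl8, Rps3, Rps4l and Rps27l were among those with none. The median level was 7.11 log2 CPM per kb for the 5 members without a copy, 6.85 for 23 with 1 to 3, 5.79 for 31 with 4 to 9 and 4.53 for 14 with 10 or more. Across the 73 genes copies and level correlated at r = -0.53 (rho = -0.61, r = -0.58 without the 2 farthest). Levels of members with copies are uncertain, since the counting could have left out or moved reads that match more than 1 place. Median rescaled differences for the high-sum comparison were -2.59, -2.54, -2.65 and -2.05 in the same order of copies.

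**Figure D5:**
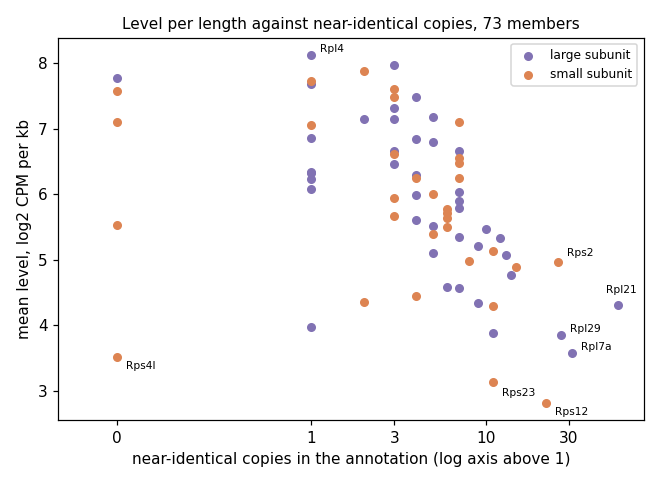
Mean level of each member in log2 CPM per kb over 65 cells against its number of near-identical annotated copies (log axis above 1), coloured by subunit. Members with 10 or more copies lie between 2.82 and 5.47, and the 23 members with 1 to 3 copies reach 8.12.

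Spread over cells was smallest for Rpl4 (SD 0.58), Rpl3 (0.67), Rpsa (0.74), Rpl13a (0.75) and Rps3 (0.76), all detected in 65 cells. It was largest for Rps4l (3.13), followed by Rpl7l1, Rpl15 (2.11), Rpl27a (2.09) and Rps27l (1.87), each of them at 0 in some cells.

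Members with and without a matched tract at a listed start had similar median differences, which were not tested against each other. A missing match describes only the listed start, so this split cannot show whether messages with and without a TOP tract differ. Members with a tract at a listed start (26) had a median rescaled difference of -2.62 in the high-sum comparison, those with an entry but no tract (29) -2.54 and those without an entry (18) -2.55. Without the high-sum cells the medians between the diets were 0.08, -0.06 and -0.03. Both Rps21, which has a tract in the windows above, and Rps28, which has none there, were among the members with the largest differences.

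Lists of other translation genes had median differences nearer to 0 than the members in the high-sum comparison. As deposited the medians were -0.48 for elongation, -0.58 for initiation, -0.77 for biogenesis and -0.04 for the TOP and mTOR list, against -1.75 for the members and -0.15 for all genes. The lists were not matched to the members for transcript length. Under 1000 bases the deposited median was -1.34 for 342 other genes and -1.84 for 55 members. The elongation list of 13 genes had a median rescaled difference of -1.33, with 7 of 13 lower by 1 or more, against 35.5% of all genes. Its lowest values were those of Tpt1 (-2.72), Naca (-2.60) and Btf3 (-2.39). Naca and Btf3 encode the complex that meets nascent chains at the tunnel exit, and are not elongation factors. The count and median of the list rest in part on these 3 genes. Eef1d (-2.33), an exchange factor subunit, came next, while Eef1a1, which brings charged tRNA to the ribosome, had 0.06. The 36 of 37 initiation genes measured had a median of -1.41, with 23 lower and 2 higher by 1 or more (higher in 11.2% of all genes), from Eif3f at -2.90 to Eif2b5 at 2.47. The 48 of 51 ribosome biogenesis genes had a median of -1.37, with 29 lower and 1 higher by 1 or more, Fbl (-3.37), the methyltransferase of ribosomal RNA, and Ncl (-3.18), nucleolin, being the lowest. Genes that act on the TOP tract or in mTOR signalling (13 of 16 measured) had a rescaled median of -0.60, with 5 lower and 3 higher by 1 or more. As deposited 1 of these 13 was lower and 5 were higher by 1 or more, against 20.8% and 19.3% of all genes. The balance in this list turned with the scaling, and rescaling moved all genes the same way, to 35.5% lower and 11.2% higher. In that list Tsc1, an inhibitor of mTOR, and Rptor, the raptor subunit of mTOR complex 1, had rescaled differences of 2.62 and 2.35, and Tial1, an RNA-binding protein, one of -2.58. Of the ribosomal proteins whose symbols the rule does not take, Fau and Rack1 had -2.70 and -1.94.

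Between the diets without the high-sum cells, these lists lay near 0, as the members did. The medians were -0.01 for elongation, -0.01 for initiation, -0.05 for biogenesis and -0.20 for the TOP and mTOR list, against -0.10 for all genes. The largest single values were Eif4ebp2 (-1.61), Nhp2 (-1.60), Eif1a (-1.43), Nat10 (1.42), Rrp9 (-1.35) and Rptor (1.32), each with an SD over cells of 1.29 or more in both diets.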

How the data were processed

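The authors deposited 1 table of log2(CPM + 1) values for 65 single-cell libraries, without counts. Per the submitters' processing notes the tools included featureCounts 1.4.6 and HISAT2 2.0.5 beside SAMtools 0.1.19, Picard 2.5.0 and bcl2fastq, and the build was mm10 (GRCm38). The sources used here do not give the total behind each CPM, the treatment of multimapping reads or strand. Of 12015 lines 140 with repeated or serial names were left out, and every line was above 0 in at least 5 cells.

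CPM was recovered as 2 to the power of the value, minus 1. In each cell the smallest step gave the CPM of 1 read, and at least 97.0% of values up to 20 steps lay within 0.1 of a whole number. Binomial intervals (exact, 95%) from these reads cover counting error only, since the libraries carry no molecular identifiers. No count model was run, because cells are not replicates and no label names an animal. Differences are those of mean log2(CPM + 1) between sets of cells, and a gene counts as lower or higher from a difference of 1. The calculation was tested on simulated data. Lengths and copies came from GENCODE M21 (BLAST 2.17.0) and start sites from RefSeq (GRCm38.p6). The software was Python 3.11.15 with numpy 2.4.6, pandas 2.3.3, scipy 1.17.1 and matplotlib 3.10.9.

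Members, lists and the split at 1200000 were chosen with earlier results of these data known. Named genes are the 10 highest and lowest members by level and by level per kb, the 8 largest differences per direction and comparison, the 5 largest and smallest SDs, all members on the role lists, members absent from 5 or more cells, up to 4 genes of each other list, and the 10 other genes most like the member mean. Some members and listed genes are not reported here by name, though counts and medians include them. Eef1a1 and the non-overlapping members were named after their values were seen. Of the marker lists, microglia had none of 9 genes measured, endothelium 2 of 7, oligodendrocyte precursors 1 of 5, and pericytes or smooth muscle 3 of 6. At least 3 markers of 1 type were found in 34 cells for astrocytes, 25 for oligodendrocytes, 4 for ependyma and 1 for pericytes or smooth muscle.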

Additional observations from a re-analysis of the deposited data

How the results depend on the processing

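Of 77 values recomputed for 13 results, 70 stayed within the spread over chow cells (or within 1.5 times for counts) and none that was beyond that spread reversed. The spread was larger than the all-cell share difference, the median and share differences without the high-sum cells, and every gap between subunits. For these results, staying within it cannot show stability. The all-cell median of -0.45 had a spread of 0.43, so a value of -0.14 also counted as within it. The median member difference of the high-sum against the other low-sodium cells was -1.26 with a pseudocount of 10 CPM, -2.55 rescaled, -2.80 after thinning to 50000 reads and -2.54 rescaled without cells with non-neuronal markers, an alternative added after seeing the data. It ran from -1.90 to -1.68 when each cell was left out in turn. The count of members lower by 1 or more between the diets over all cells was 10 of 73 rescaled, against 9.58% of all genes. By the ratio of mean CPM it was 0 over all cells and 0 without the high-sum cells, and no share of all genes is given for that ratio. The cause of these shifts was not tested. Without the 39 marked cells, including 7 of the 9 high-sum cells, the all-cell difference in share was -0.0136 percentage points in place of -0.124. Differences near 0, the median without the high-sum cells (-0.055 to 0.052 leaving out each cell) and the gaps between subunits, took either sign. The gap between subunits per kb was 0.22 by coding length and -0.0031 without Rpl4. The recovered reads of the members, 292 in the shallowest high-sum cell, limit single genes there. No paired analysis was possible because the neuron numbers name cells only and the results come from no test.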
